A study of Sus scrofa with 4 samples.

Results

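The regions described here are stretches of the pig genome at which open chromatin was called in both BRG1 libraries and in neither control library. The assay was ATAC-seq, which uses Tn5 transposase to insert sequencing adapters where DNA is accessible, and the cells were porcine fetal fibroblasts (PFFs) from skin. BRG1 was over-expressed with pTK-642-BRG1 in the BRG1 libraries (BRG1 1 and BRG1 4), while the control libraries (control 1 and control 4) are pTK-642 wild-type cells, and all 4 were serum starved. Peaks of the 4 lists were joined where they overlapped by at least 1 bp, which gave 121788 union regions. Of these, 903 (0.741%) were BRG1-only. These regions were chosen by the authors' peak calls in the same 4 libraries, so their presence in BRG1 and absence in control libraries is not a finding, and no test is given on them. Whether the libraries within a group are separate cultures, and which promoter drives the vector, is not stated in the labels.

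BRG1 is the product of SMARCA4 and 1 of the alternative ATPases of the BAF complex, the mammalian relative of yeast SWI/SNF. BAF slides or ejects nucleosomes, and is known for keeping enhancers and some promoters accessible to transcription factors. In fibroblasts such enhancers are bound by AP-1 factors, among others. A peak shows that accessibility passed a threshold in 1 library. A missing peak shows only that it did not pass there, and fewer cells with an open site cannot be told apart from a less open site in each cell.

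Peaks numbered 96367 in BRG1 1 and 90851 in BRG1 4, against 107475 in control 1 and 105954 in control 4. Median peak width was 404 bp in BRG1 1 and 541 bp in BRG1 4, against 403 bp in control 1 and 396 bp in control 4. Of 15 fibroblast markers, 14 had a peak within 1 kb of a gene end in BRG1 1 and 13 in BRG1 4, against 13 in each control library. DCN, the matrix proteoglycan decorin, lacked one in all 4 libraries. No library had a gene-end peak at several defining markers of other cell types, including KRT5, KRT1, CDH1 and TP63 of keratinocytes, PECAM1, CDH5 and VWF of endothelium and PTPRC of immune cells. Other markers of those lists did have one: 3 or 4 of 8 for keratinocytes, 3 or 4 of 9 for endothelium, 4 or 5 of 10 for immune cells, 4 to 6 of 8 for skeletal muscle and 5 of 8 for adipocytes in each library. The read depth of the libraries is unknown, and tag numbers therefore carry no interval.

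The number of BRG1-only regions was the smallest of the 6 sets private to a pair of libraries with all deposited peaks, and the largest with lists of equal length. The mixed pairs held 1904 regions (BRG1 1 with control 1), 1782 (BRG1 1 with control 4), 1513 (BRG1 4 with control 1) and 1205 (BRG1 4 with control 4), and the control pair 5376. These are 1.56%, 1.46%, 1.24%, 0.989% and 4.41% of the union regions. Regions called in both BRG1 libraries and 1 control library were more numerous than BRG1-only regions, at 1474 with control 1 and 1255 with control 4. With every list held to the 90851 strongest peaks the BRG1-only count was 2245, against 1413 to 1632 in the mixed pairs and 2240 in the control pair, and 616 of the 903 regions (68.2%) kept their call. The count was 5308 without BRG1 1, 4042 without BRG1 4, 2402 without control 1 and 2172 without control 4, where fewer libraries had to share or lack a peak.

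BRG1-only regions were weak peaks in both libraries that defined them. Their median percentile of −log10 p within the list was 10.8 in BRG1 1 (lowest 0.00675, highest 53.3) and 14.4 in BRG1 4 (lowest 0.00495, highest 66.9). No region lay above the 50th percentile in both libraries, 58 lay above the 25th in both, and 195 lay under the 10th in both. The tag pileup at the summit, recovered from the authors' fold and p-value, had a median of 14 tags in each library and ran from 7 to 95 in BRG1 1 and from 7 to 113 in BRG1 4. The authors' fold over background had a median of 4.58 in BRG1 1 and 4.15 in BRG1 4. Low rank was common to all pair-private sets: the control pair had medians of 18.1 in control 1 and 16.5 in control 4. With only the upper 50% of lists of equal length, none of the 903 regions kept its call.

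**Figure D1:**
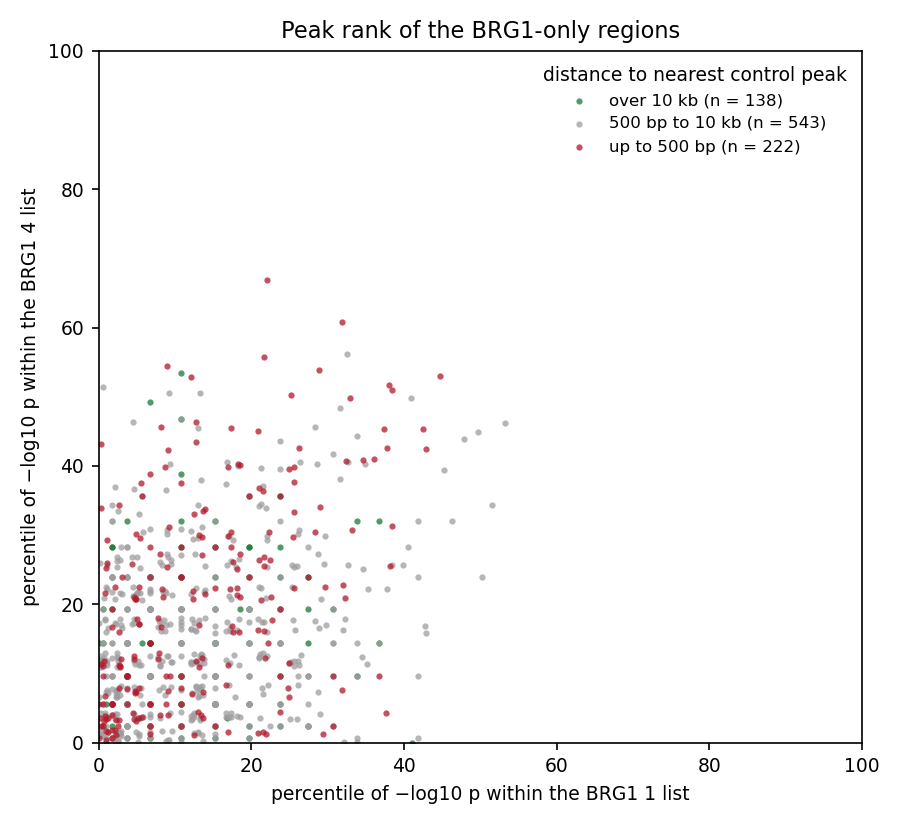
Percentile of −log10 p of each BRG1-only region within the BRG1 1 list (x axis) and the BRG1 4 list (y axis), coloured by distance to the nearest control peak. The 903 points crowd below the 50th percentile in both lists, and the highest points lie up to 10 kb from a control peak.

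The regions were narrow, and sets that held BRG1 4 were wider than sets that did not. The union region had a median width of 321 bp, with 10th and 90th percentiles of 231 and 565.8 bp and a maximum of 980 bp. The peak at the region had a median width of 233 bp in BRG1 1 and 260 bp in BRG1 4, and it was wider in BRG1 4 at 525 regions, wider in BRG1 1 at 336 and equal at 42. Sets that held BRG1 4 with a control had medians of 323 and 324 bp, sets that held BRG1 1 with a control 273 and 278 bp, and the control pair 291 bp. Regions called in all 4 libraries were wider, with a median of 708 bp. At 900 of the 903 regions each BRG1 library had a single peak, and summits of both lay a median of 42 bp apart, with 74.4% within 100 bp. Summit offsets were of the same size in the other sets with BRG1 4 (43 bp in both) and smaller in sets without it (27 to 30 bp).

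In each of the 3 widest regions the BRG1 4 peak spanned the whole region. One lay 9785 bp from the lower-coordinate end of WDR64 on chromosome 10 (11735065 to 11736044, Sscrofa11.1), with peaks of 341 bp in BRG1 1 and 980 bp in BRG1 4. The second lay 105068 bp from SPATA18, a regulator of mitochondrial quality, with 329 and 927 bp. The third lay inside SOX5, a transcription factor of cartilage and neural development, with 570 and 921 bp.

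**Figure D2:**
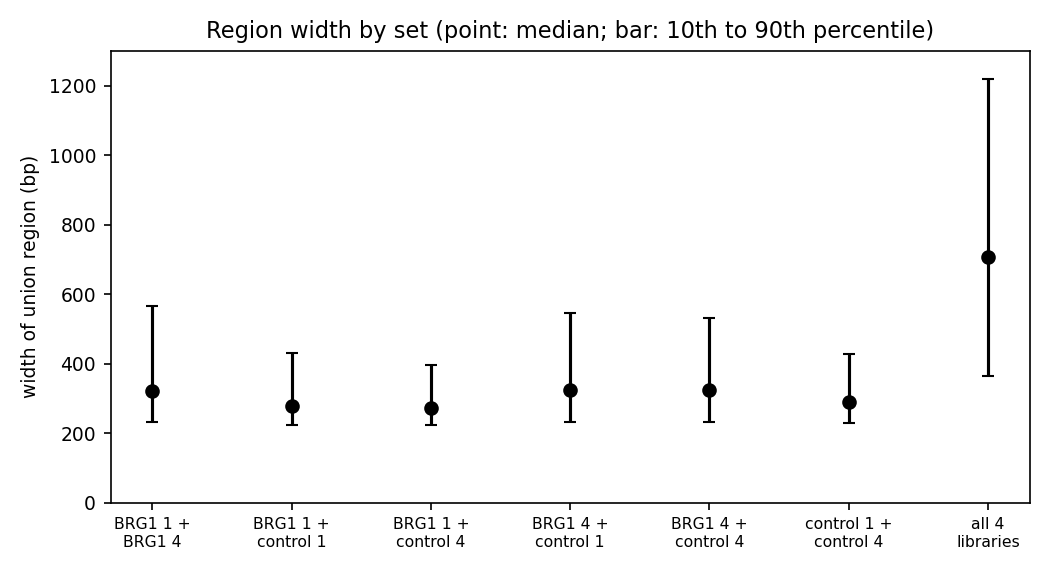
Width in bp of union regions private to each pair of libraries and of regions called in all 4; points are medians and bars run from the 10th to the 90th percentile. The 3 sets that contain BRG1 4 have medians of 321 to 324 bp, the 3 without it 273 to 291 bp, and regions of all 4 libraries 708 bp.

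Many BRG1-only regions lay close to chromatin that was open in control cells. The nearest control peak was a median of 2350 bp away, 222 regions (24.6%) had one within 500 bp, and 138 (15.3%) had none within 10 kb. Of the 222, 151 lay within 500 bp of a peak in both control libraries, 211 had control peaks on 1 side only and 11 on both sides. The nearest control peak was of middle rank, with median percentiles of 48.1 in control 1 and 47.9 in control 4. Regions close to a control peak sat on a higher local background: within 500 bp the median background was 2.77 tags in BRG1 1 and 3.13 in BRG1 4, and beyond 10 kb it was 1.55 and 1.77. All 73 regions with a pileup of at least 30 tags in both BRG1 libraries lay within 10 kb of a control peak.

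The rule turns on single base pairs at its edge. The region nearest to a control peak and still BRG1-only lay inside MAGED1 on the X chromosome (45285543 to 45285987), 2 bp from a peak of control 4. A region on chromosome 13 (88125416 to 88125754), 375157 bp from ZIC1, lay 11 bp from a peak of control 1. Just outside the rule, a region on chromosome 12 (43463729 to 43464530) was shared through an overlap of 7 bp. Such cases were few: 8 BRG1-only regions had a control peak within 50 bp, and 9 of 77973 regions shared with a control rested on an overlap of at most 50 bp.

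Proximity to shared open regions was highest in the BRG1-only set when all peaks were used. A region called in all 4 libraries lay within 5 kb of 494 BRG1-only regions (54.7%), against 41.4% to 43.8% in the mixed pairs and 32.6% in the control pair. The median distance was 4147.5 bp, against 6043.5 to 6703 bp and 8497 bp. With lists of equal length the order was lost: the BRG1-only set had 36.3%, the mixed pairs 35.7% to 41.3% and the control pair 42.0%. The share within 500 bp of a peak of the absent pair was 24.6% for BRG1-only regions, 20.9% and 22.7% for the other sets with BRG1 4, 10.8% and 11.3% for the mixed sets with BRG1 1, and 7.65% for the control pair. At equal length these were 12.9%, 13.0% and 15.6%, 7.97% and 10.2%, and 8.08%. The control lists were longer and the peaks of BRG1 4 wider, and their part in these shares was not tested beyond these values.

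**Figure D3:**
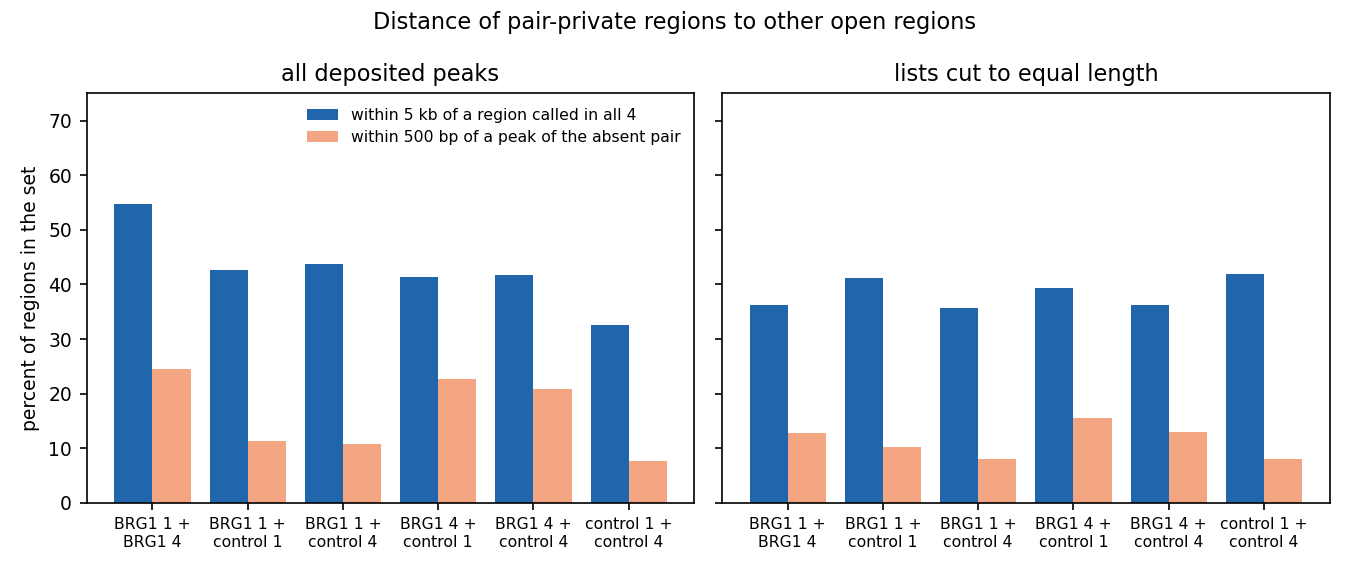
Percent of regions in each pair-private set that lie within 5 kb of a region called in all 4 libraries (blue) or within 500 bp of a peak of the pair that lacks the region (orange), with all deposited peaks and with lists of equal length. The BRG1 pair is highest in blue with all peaks, at 54.7%, and within the range of the others at equal length, at 36.3%.

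Shared regions beside BRG1-only regions had lower percentiles in both BRG1 libraries than in both control libraries. The 639 regions called in all 4 libraries within 5 kb of a BRG1-only region had median percentiles of 55.8 in BRG1 1 and 54.0 in BRG1 4, against 60.6 in control 1 and 61.2 in control 4. The mean was 54.9 ± 1.24 in the BRG1 libraries and 60.9 ± 0.433 in the control libraries (SD, n = 2 each; two-sided exact permutation p = 0.33, the smallest that 2 against 2 can give). All regions called in 4 libraries showed the same order, at 60.4 and 58.4 in BRG1 against 64.4 and 63.9 in control. Percentiles are ranks within each list, and the lists differ in length. Control 1 held 107475 peaks and control 4 105954, against 96367 in BRG1 1 and 90851 in BRG1 4. The part of list length in these ranks was not tested, so they do not compare accessibility between the groups. The difference of −5.98 percentiles lay among those of neighbours of the other pair sets, which ran from −6.66 to −3.80.

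Most BRG1-only regions lay over 10 kb from any gene end, and so did most regions of every other pair set. Of the 887 on chromosomes 1 to 18, X and Y, 64 (7.22%, 95% exact binomial interval 5.601 to 9.121) lay within 1 kb of either end of a protein-coding gene model. The interval treats regions as independent draws and does not measure variation between libraries. In classes that overlap, 601 (67.8%) were over 10 kb from any gene end, 475 (53.6%) were inside a model and 100 (11.3%) were outside models and over 100 kb from any end. Gene-end shares were 6.23% to 7.15% in the mixed pairs, 4.52% in the control pair and 18.4% in regions called in all 4 libraries. Shares over 10 kb were 68.1% to 70.4%, 74.1% and 60.1% in the same order. Shares inside a model were 50.9% to 54.4%, 51.4% and 58.8%. Those outside models and over 100 kb from any end were 12.4% to 13.3%, 15.4% and 9.76%. BRG1-only regions had a mean of 5.36 regions of all 4 libraries within 50 kb, against 4.66 to 4.87 in the mixed pairs and 4.25 in the control pair. The median model that hosted a region was 124.9 kb long, against 115.8 to 131.0 kb in the mixed pairs and 148.5 kb in the control pair.

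Regions close to a control peak were more often at a gene end than the rest, though the counts at gene ends were similar. Of 219 placed regions within 500 bp of a control peak, 34 (15.5%) were at a gene end, against 30 of the other 668 (4.49%). The same split was seen in each other pair set, with 10.1% to 18.6% of regions near a peak of the absent pair and 3.09% to 6.06% of the rest. BRG1-only regions lay at an end of 68 genes (0.348% of 19550 models). Of these, 48 had a peak within 1 kb of either end in both control libraries, 4 in 1 and 16 in neither. The control peak need not lie at the same end as the BRG1-only region. At NFIL3, counted among the 48, the nearest control peaks were 6533 and 6528 bp from the region. The BRG1 peaks at the 68 genes follow from the rule. Control peaks at gene ends are not given in this way for all models or for the other pair sets. Whether 16 of 68 is a high share was therefore not tested. The share of genes with a region at an end was 0.726%, 0.655%, 0.501% and 0.404% for BRG1 1 with control 1, BRG1 1 with control 4, BRG1 4 with control 1 and BRG1 4 with control 4, and 1.31% for the control pair.

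The 16 genes whose ends carried a peak in BRG1 libraries and in no control library are named here after their values were seen. They were CXCL10, a chemokine induced by interferon; CLDN4, a tight junction protein; FGFBP1, a carrier of fibroblast growth factors; SNAI3, of the Snail family of repressors; ADORA2A, an adenosine receptor; and GPR171, a G-protein coupled receptor. PNOC, the precursor of nociceptin, NRSN1, a neuronal membrane protein, KRT28, a hair follicle keratin, TEX12, of the meiotic synaptonemal complex, and CMAH, an enzyme of sialic acid modification, were also among them. The others were NSUN7, TMEM176B, CDRT4, LOC100623862 and LOC106504436. The region at NRSN1 covered the lower-coordinate end of the gene (chromosome 7, 19007650 to 19007920), with folds of 6.26 in BRG1 1 and 4.33 in BRG1 4 and 15 and 11 tags, and lay 144188 bp from the nearest control peak. That at FGFBP1 (chromosome 8, 11186322 to 11186593) also covered the lower-coordinate end, with folds of 7.05 and 3.61 and percentiles of 30.8 and 2.49 in BRG1 1 and BRG1 4. By rank, both were weaker in BRG1 4 than in BRG1 1. Of the 16, CXCL10, NRSN1, PNOC, NSUN7, KRT28, GPR171 and CDRT4 had no control peak within 10 kb of the region. The region at ADORA2A lay 215 and 338 bp from peaks of control 1 and control 4, just outside the window at the gene end. Its percentiles were 5.22 in BRG1 1 and 3.55 in BRG1 4. The region at CLDN4 also had control peaks that close, at 239 and 209 bp. For the remaining genes the nearest control peak lay 2078 to 7884 bp from the region.

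The highest ranking regions mostly lay within 1 kb of peaks in both control libraries, and joining peaks across gaps of 500 bp ended the call at 6 of the first 10: FOSL1, HEXIM1, LOC102164776, GRPEL1, TULP3 and BICRA. First by mean percentile was a region of 233 bp inside FOSL1, which encodes the AP-1 subunit FRA1 (chromosome 2, 6431244 to 6431476). It had 95 tags and a fold of 3.48 in BRG1 1 and 84 tags and a fold of 2.79 in BRG1 4, and control peaks lay 593 and 574 bp away in control 1 and control 4. The region inside HEXIM1, an inhibitor of the elongation factor P-TEFb (chromosome 12, 18268210 to 18268423), had 86 and 96 tags with control peaks 205 bp away in both. IFITM3, a membrane protein that restricts viruses, has closely similar paralogs between which reads can be split, which makes its call uncertain. Its region (chromosome 2, 129549 to 129982) had 65 and 54 tags in BRG1 1 and BRG1 4, and control peaks lay 721 and 755 bp away.

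Of the next regions by rank, those at SP3 and EMID1 lay farther from control peaks. The region 31218 bp from SP3, a GC-box binding factor (chromosome 15, 79904270 to 79904767), had 60 tags in BRG1 1 and 56 in BRG1 4 and control peaks at 1943 and 1848 bp. That inside EMID1, an extracellular protein, had 27 tags and folds of 6.90 and 7.11, and control peaks were 4050 and 4084 bp away. Its neighbour called in all 4 libraries lay 10315 bp off, the farthest among these 10. The other 5 had control peaks 153 to 606 bp away in both control libraries: LOC102164776, GRPEL1, a mitochondrial co-chaperone, TULP3, of ciliary trafficking, BICRA, a subunit of non-canonical BAF, and NCAPD2, a condensin subunit. BICRA had the largest gap between libraries, at percentile 22.0 with 73 tags in BRG1 1 and 66.9 with 113 tags in BRG1 4.

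Among cytokine genes, IL6 and CXCL8 had many tags at a gene end and CXCL10 few, but CXCL10 had higher folds than both. The fold of CXCL8 was 2.04 in BRG1 1 and 2.75 in BRG1 4. Folds of IL6 and CXCL8 lay under the 10th percentile of BRG1-only regions, which was 3.25 in BRG1 1 and 3.14 in BRG1 4. The region inside IL6, an inflammatory cytokine (chromosome 9, 91509993 to 91510276), had 78 tags and a fold of 2.63 in BRG1 1 and 87 tags and a fold of 2.48 in BRG1 4. Its nearest control peaks lay 3195 bp away in control 1 and 1287 bp in control 4. CXCL8, a neutrophil chemokine, had a region outside the model (chromosome 8, 69936005 to 69936512) at percentile 12.2 in BRG1 1 and 52.8 in BRG1 4, with control peaks 198 and 203 bp away. Its summits lay 243 bp apart in the BRG1 libraries, and the call was lost when each peak was replaced by 200 bp on both sides of its summit. CXCL10 differed in that the nearest control peaks were 21275 and 48592 bp away. Its region (chromosome 8, 71695862 to 71696159) had 13 tags and a fold of 5.48 in BRG1 1 and 12 tags and a fold of 4.69 in BRG1 4. It also lay inside ART3.

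Other listed genes with a region at an end were few. IFNGR2, a chain of the interferon gamma receptor (chromosome 13, 197007634 to 197007925), had folds of 3.63 in BRG1 1 and 3.21 in BRG1 4, with control peaks 199 bp away in both. WNT5A, a ligand of non-canonical WNT signalling (chromosome 13, 37366299 to 37366511), had 45 tags in BRG1 1 and 48 in BRG1 4, and control peaks 415 and 278 bp away. CLDN4 (chromosome 3, 11040650 to 11040856) had 23 and 34 tags and control peaks 239 and 209 bp away, outside the gene-end window. The region at NCAPD2 also lay within 1 kb of GAPDH, a glycolytic enzyme. RASL11A, a small GTPase, SNX10, a sorting nexin, and CLP1, an RNA kinase, had control peaks 163 to 583 bp away. Joining peaks across gaps of 500 bp ended the call at 8 of these 13 regions: TULP3, BICRA, RASL11A, CLP1, CXCL8, IFNGR2, WNT5A and CLDN4.

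**Figure D4:**
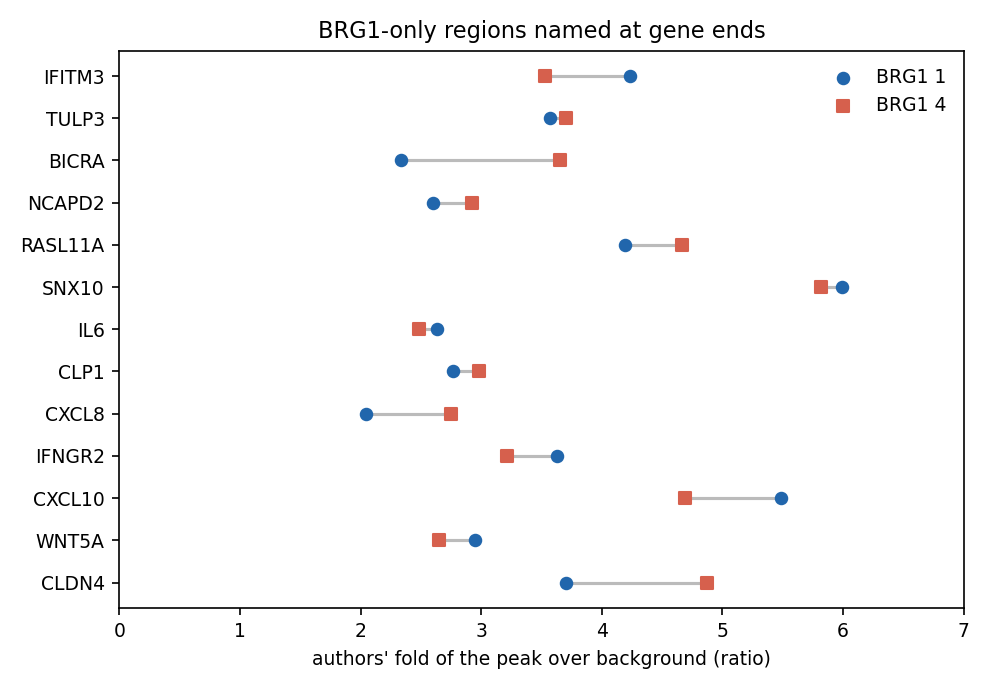
Authors' fold of the peak over the background of its own library (ratio, x axis) in BRG1 1 (circles) and BRG1 4 (squares) for 13 BRG1-only regions at gene ends, the 10 highest by mean percentile and those of listed genes. Folds run from 2.04 at CXCL8 in BRG1 1 to 5.99 at SNX10 in BRG1 1, and BICRA has the widest gap between the libraries.

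Within 10 kb of a gene model, BRG1-only regions reached 692 of 19550 genes (3.54%), and 29 of 454 listed genes (6.39%). Regions of the other sets reached 6.99%, 6.4%, 5.53% and 4.24% of all genes for BRG1 1 with control 1, BRG1 1 with control 4, BRG1 4 with control 1 and BRG1 4 with control 4, and 15.9% for the control pair. No share of the listed genes is given for those sets. Whether a higher share of listed genes is particular to BRG1-only regions was therefore not tested. Interleukins and chemokines had 4 of 23 genes, IL1A being the one beyond IL6, CXCL8 and CXCL10, against 0 to 4 in the mixed pairs and 3 in the control pair. The region counted for IL1A lay inside another gene, CKAP2L, 9843 bp from the IL1A model, at percentile 2.41 in BRG1 1 and 25.4 in BRG1 4. Growth factors and receptors had 4 of 29: PDGFD, a platelet-derived growth factor, EGFR, and IGF1 and its receptor IGF1R. The mixed pairs had 1 to 7 of that list and the control pair 11. Interferon response genes had 3 of 25, against 0 to 3 in the mixed pairs and 4 in the control pair. They were IFNGR2, IFITM1 and IFITM3, and IFITM1 and IFITM3 were counted from the same regions. WNT pathway genes had 3 of 30 (WNT5A, WNT11 and TCF7L2), against 1 to 4 in the mixed pairs and 5 in the control pair. Matrix proteases and inhibitors had 2 of 19 (MMP14 and TIMP3), BAF subunits 2 of 28 (DPF3 and BICRA) and fibroblast and matrix genes 2 of 26 (COL3A1 and TWIST1). In that order, the mixed pairs had 0 to 4, 1 to 2 and 2 to 4 genes of these lists, and the control pair 9, 6 and 8. NF-kappaB genes had 1 of 17 (NFKBIZ), AP-1 and serum response genes 1 of 21 (FOSL1), cell cycle genes 1 of 29 (NCAPD2), chromatin modifiers 1 of 38 (CREBBP) and housekeeping genes 1 of 12 (GAPDH). No gene had one in the lists of TGF-beta and BMP (29 genes), pluripotency (24), early embryo lineages (21), apoptosis (18) and imprinted genes (15). Each mixed pair had 0 to 3 genes in these lists, and the control pair 0 in apoptosis and up to 8 in TGF-beta and BMP. With 3.54% of all genes reached, a count of 0 in lists this short says little.

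Among lists of markers of other cell types, some had a BRG1-only region within 10 kb of a gene. Keratinocyte markers had 2 of 8 (CLDN4 and TP63, an epidermal transcription factor), adipocyte markers 1 of 8 (ADIPOQ, adiponectin), and endothelial, immune and skeletal muscle markers none of 9, 10 and 8. Across the keratinocyte list, gene-end peaks were called at 4 genes in each BRG1 library and at 3 in each control library. The gene that differed was CLDN4, whose region was chosen by the rule, so this difference is not a finding. Control peaks lay 239 and 209 bp from that region.

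**Figure D5:**
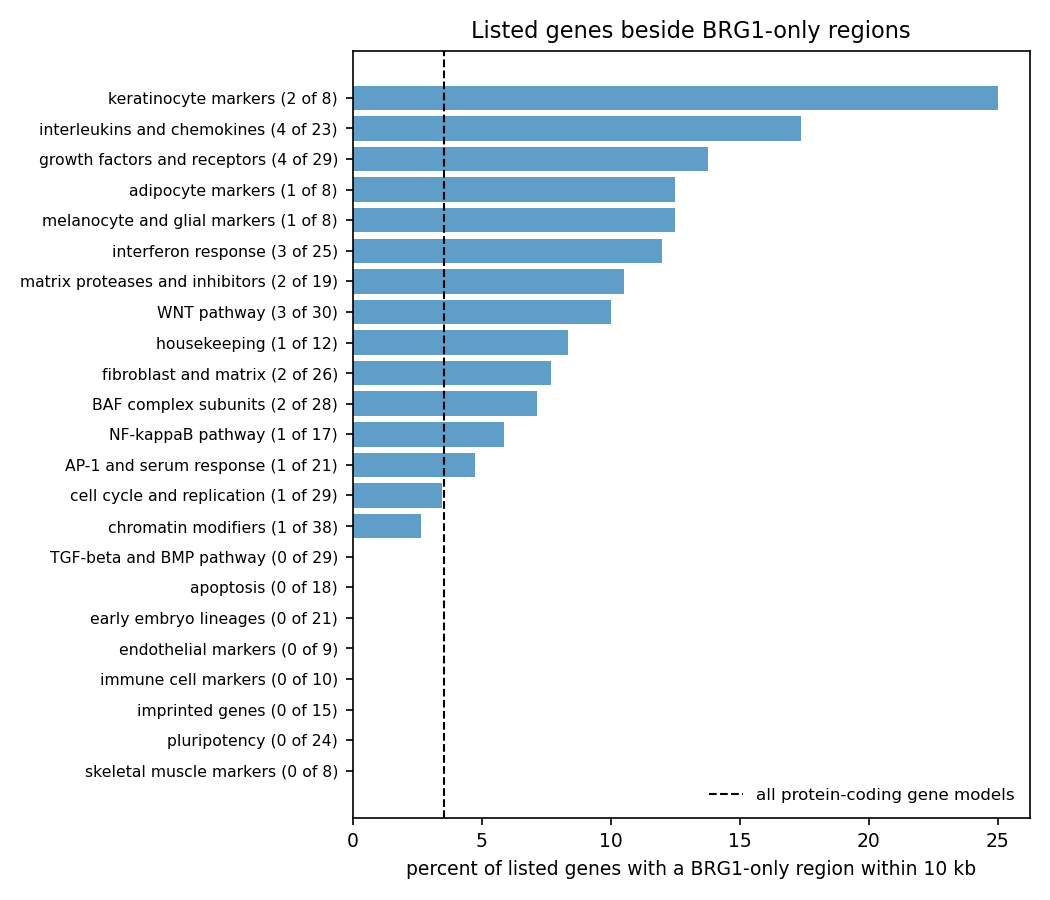
Percent of the matched genes of each list that have a BRG1-only region within 10 kb of the gene model, with the count in brackets; the dashed line is the 3.54% of all protein-coding models. Interleukins and chemokines stand at 4 of 23 and keratinocyte markers at 2 of 8, and 8 lists have none.

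Single regions at these genes were mostly of low rank. At IGF1, a growth factor of fibroblasts, 2 regions lay inside the model 11489 bp apart. The first (chromosome 5, 81764454 to 81764761) had 18 tags and a fold of 7.44 in BRG1 1 and a fold of 4.69 in BRG1 4, with control peaks 7586 and 7582 bp away. The second had folds of 3.42 and 3.67 in BRG1 1 and BRG1 4, and control peaks lay 210 and 222 bp away. At EGFR and IGF1R the BRG1 1 peaks were among the weakest of the list, at percentiles of 0.0332 and 0.217. The region inside COL3A1, a fibrillar collagen, had folds of 3.54 in BRG1 1 and 3.02 in BRG1 4, and a peak of control 4 lay 1769 bp away. That near TWIST1, a mesenchymal regulator, was at percentile 12.5 in BRG1 1 and 1.41 in BRG1 4. The region 8029 bp from MMP14, a membrane collagenase, was at 8.94 in BRG1 1 and 54.4 in BRG1 4. Its nearest gene end was that of SLC7A7, 1553 bp away. At TWIST1 and MMP14 the libraries thus ranked the region differently.

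Near SMARCA4 itself there was 1 BRG1-only region within 50 kb. It lay 14075 bp outside the lower-coordinate end of the gene (chromosome 2, 69702620 to 69703099; the gene spans 69717175 to 69810301). It had 11 tags and percentile 6.78 in BRG1 1 and 14 tags and percentile 24.0 in BRG1 4, and control peaks lay 13420 and 5107 bp away. Peaks do not measure expression of the introduced BRG1.

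BRG1-only regions were scattered over the genome. The median gap between neighbours was 1538.1 kb and the mean gap 2682.1 kb. Only 54 of 887 (6.09%) had another within 50 kb, against 8.35% to 10.2% in the mixed pairs and 24.7% in the control pair, an order that also follows the size of the sets. At equal list length the order turned, with 14.4% for BRG1-only regions, 7.74% to 8.94% for the mixed pairs and 12.3% for the control pair. Scaled to its own mean gap, the share of regions with a neighbour within 2% of that gap was 6.54%, inside the 5.17% to 7.43% of the other 5 pair sets. The ratio of the median to the mean gap was 0.573, against 0.567 to 0.613. Of 28 pairs of consecutive regions within 50 kb, 22 had a region of all 4 libraries between them and 13 lay in the same gene model. The 2 closest pairs were 517 bp apart near RGS4, a regulator of G-protein signalling, and 676 bp apart near TMEM33, and had no such region between them.

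Only 2 clusters of 3 regions with gaps of at most 50 kb were found, against 1 to 6 in the mixed pairs and 84 in the control pair. The first spanned 64442 bp inside MAGI1, a junction scaffold protein, on chromosome 13 (47317043 to 47381484). Its regions had folds of 4.31, 4.31 and 5.09 in BRG1 1 and 4.23, 4.69 and 6.13 in BRG1 4, and their nearest control peaks lay 3935, 35428 and 57063 bp away. MAGI1 held 46 union regions, of which 3 were BRG1-only and 2 control-only. The second spanned 49463 bp on chromosome 17 (63402464 to 63451926), outside gene models and 329408 bp or more from PCMTD2. Its lowest folds were 3.32 in BRG1 1 and 2.54 in BRG1 4, and control peaks lay 673 to 2722 bp away. With a −log10 q of at least 5, 1 MAGI1 region and 2 of the other cluster lost their call, and at equal list length 1 of each did, so neither cluster kept all 3 regions. All regions of the second cluster were closer to a control peak than any region of the MAGI1 cluster.

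By gene, 459 models (2.35%) held a BRG1-only region, 433 of them 1 region and 24 of them 2. The other sets reached the inside of 4.8%, 4.22%, 3.88% and 3.04% of models for BRG1 1 with control 1, BRG1 1 with control 4, BRG1 4 with control 1 and BRG1 4 with control 4, and 11% for the control pair. ENOX1, a cell surface oxidase of 660.0 kb, and MAGI1, of 671.6 kb, held 3 each. ADAMTSL1, a matrix glycoprotein related to ADAMTS proteases, ATG7, an activating enzyme of autophagy, and ATP6V1B1, a proton pump subunit, were the next named, with 2 each. ADAMTSL1 spans 1007.6 kb and ATP6V1B1 31.8 kb. At ADAMTSL1 there were also 7 control-only regions, while at ATG7 and ATP6V1B1 there were none. All 3 ENOX1 regions lost their call with a −log10 q of at least 5. The stronger of the ATG7 regions had folds of 7.05 in BRG1 1 and 7.21 in BRG1 4.

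In bins of 1 Mb, 701 held a BRG1-only region, 539 of them a single one, and no bin held more than 4. One of the 4 bins with 4 regions covered the matrix metalloprotease genes of chromosome 9 (33000001 to 34000000), and it is described here after its values were seen. Its regions lay inside MMP20, an enamel protease, inside MMP27, 12936 bp from MMP12, a macrophage elastase, and 25652 bp from MMP13, a collagenase. Their pileups were 9 to 15 tags in BRG1 1 and 10 to 14 in BRG1 4. The nearest control peaks lay 1767 to 8859 bp away, and all 4 regions were weak.

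The regions farthest from any control peak had low pileups. Those whose nearest genes were LOC100525692, NRSN1, GCFC2 and SI, an intestinal disaccharidase, lay 105544 to 160388 bp from a control peak. Their peaks had folds of 3.92 to 6.26 in BRG1 1 and 4.33 to 5.41 in BRG1 4, with 9 to 15 tags in BRG1 1 and 11 to 14 in BRG1 4. In the 138 regions without a control peak within 10 kb, the median pileup was 12 tags in BRG1 1 and 11 in BRG1 4, the median fold 5.09 and 4.33, and the median width 324 bp.

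Among chromosomes, BRG1-only regions made up 32 of 6337 union regions on chromosome 15 and 32 of 2884 on chromosome 11, with the other autosomes and the X chromosome between these in share. Chromosome Y had 5 of 324. About as many BRG1-only regions lay within 50 kb of a control-only region as in the mixed sets, at 26.2% against 23.7% to 28.1%.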

How the data were processed

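Each library has its own deposited peak list, in narrowPeak format. Per the submitters' processing notes, the tools were MACS2, SAMtools, Bowtie, BWA and FastQC and the build was Sscrofa11.1, without versions or the part each tool played. Fold, as the authors give it, is a ratio of summit pileup to local background within a library. Significance is deposited as −log10 p-values and −log10 q-values, and 10 times the −log10 q-value, without its decimals, is the deposited score. All describe peaks within their own list. Caller settings, duplicate handling and any Tn5 shift, which bear on the number and width of peaks, were not given in the sources used here.

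Analyses used Python 3.11.15, pandas 2.3.3, NumPy 2.4.6 and SciPy 1.17.1, and set operations were tested on simulated peaks. Percentiles are ranks of −log10 p within a list. Summit pileups were recovered from fold and p-value (relative tolerance 0.0001; all 903 regions in both BRG1 libraries matched). Depth per library is unknown. Genes were 19550 protein-coding RefSeq models of the same build, with no strand or exons, so gene starts, exons, introns and UTRs were not assigned and the gene-start alternative was not run. Of 471 entries on 23 gene lists, 455 matched. No genome sequence was used here, so no sequence is printed and the planned promoter motifs were not run. Distances are base pairs between nearest edges.

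The regions and gene lists were chosen with earlier results of these data known. By rule the text names the 10 BRG1-only regions of highest mean percentile, the 10 highest at gene ends, listed genes with a region at an end, clusters of 3 or more, the 5 genes with most regions inside (ties by symbol), the 3 widest regions, the 5 farthest from and 2 closest to a control peak, and SMARCA4. Listed genes within 10 kb of a region are named as well. Some items that these rules select are not reported here. Shares of sets are descriptions. Tests, on the rank of shared neighbours, are two-sided exact permutation tests over libraries.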

Additional observations from a re-analysis of the deposited data

How the results depend on the processing

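Of 86 values recomputed under other settings, 43 moved, 0 reversed and 43 did neither. In the last group, counts stayed within 1.5 times the value reported, and shares and the distance within its 95% interval. Widths stayed within 1 SD of the BRG1 libraries, and the rank difference kept its sign. Only the rank difference could be labelled reversed, and its percentiles stayed those of the full lists in every setting. The 95% intervals treat regions as independent draws, so they are a yardstick and not a spread between libraries. With lists of equal length the count was 2245, genes within 10 kb 1482, the share within 50 kb of another 14.4%, the median width 380 bp and the median distance to a control peak 5269 bp. The upper 50% of those lists gave a gene-end share of 11.3%, a width of 666 bp and a distance of 9920 bp. A −log10 q of at least 5 gave 361 bp and 3321 bp. Joining across gaps of 500 bp gave 4.58% at gene ends, 362.5 bp and 4122 bp, and 665 of 903 regions kept their call. Overlap of 50% of the shorter peak gave a distance of 2041 bp. Windows of 200 bp around summits, added after seeing the data, gave 11.4% at gene ends, 8.49% within 50 kb, 440 bp and 1610 bp. No control peak within 10 kb, also added later, left 138 regions. A gene-end window of 3 kb gave 15.7%, spacing limits of 20 and 100 kb 2.71% and 11.0%, peak widths 233 bp in BRG1 1 and 260 bp in BRG1 4, and gene windows of 0 and 50 kb 459 and 1500 genes. Leaving out each library gave 2172 to 5308 regions, 1525 to 3320 genes, 6.78% to 8.80% at gene ends, 14.9% to 30.9% within 50 kb, widths of 214 to 338 bp, distances of 1357.5 to 3503 bp and rank differences of −7.88 to −5.50. What else moved these values was not tested. The region counts and shares come from no test over samples and have no paired form. For the rank difference, a replicate block, added later, gave −5.98. That value equals the main difference by construction, so the block could not change its sign. Both numbers were negative (exact sign-flip p = 0.5, the smallest that 2 pairs can give). Same-numbered libraries did not deviate together (correlation −0.04 over 75244 shared regions). Depth limits what an absent peak shows.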
